A study of Mus musculus with 6 samples.

Results

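Metallothioneins are small cysteine-rich proteins that bind zinc, copper and cadmium. Their genes are switched on by the zinc-sensing transcription factor MTF1, which binds metal response elements (MREs) in their promoters and also drives Slc30a1, the exporter that moves zinc out of the cell. Metallothionein transcripts are also known to respond to glucocorticoids, oxidative stress and cytokines. The 5 genes described here are the metallothionein genes Mt1, Mt2 and Mt3, the regulator Mtf1 and the exporter Slc30a1. They were taken by symbol, as every probe set (a group of array probes that reads one transcript) that the platform's annotation assigns to 1 of these genes alone, and each gene had 1 such probe set. They are 5 of 8251 genes named on the array.

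The arrays compared double-negative thymocytes, the T cell precursors without CD4 and CD8, of RAG1/Ezh2 double mutant mice (3 arrays) with those of mice deficient in RAG1 alone (3 arrays). RAG1 is part of the recombinase of antigen receptor genes, both groups are labelled as deficient or mutant in it, and thymocytes without it are arrested before they can gain CD4 and CD8. Ezh2 is the enzyme of Polycomb repressive complex 2 that writes H3K27me3, a histone mark of silenced genes. The labels give neither the alleles, strain, sex or age, nor whether a Cre line was used or animals were pooled. They do not say that samples came from separate animals, so the spread between arrays may be technical. The titles come in 3 styles (numbered, Rag and Thy), each with 1 array of each group, and replicates 1, 2 and 3 follow that order.

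The values are scaled intensities, on a linear scale that does not allow one gene's level to be set against another's. Between 55.2% and 64.3% of the probe sets on an array lay above the intensity of 86.5 that served as the filter for testing. The GAPDH 3′ to 5′ signal ratio, a sign of RNA quality, was 0.836 to 1.14 in the double mutant and 0.889 to 1.35 in the RAG1-deficient arrays. The actin ratio was 1.24 to 2.77 in the double mutant and 1.40 to 2.26 in the RAG1-deficient arrays, highest on replicate 2 of each group. Ezh2 itself stood at 292, 651 and 724 in double mutant thymocytes, against 1435, 1641 and 1789.5 on the RAG1-deficient arrays. Of 12 double-negative thymocyte markers on the array, 11 lay above the filter on at least 1 array. The exception was Cd44, whose brightest probe set reached at most 84.7. The brighter probe set of Rag1 gave 5394, 5226 and 5171 in double mutant thymocytes, against 6933, 7241 and 7264 in RAG1-deficient thymocytes. Since the alleles are not given, this signal cannot check the RAG1 label on any array. By its CD8 genes, 1 array goes against its label. RAG1-deficient replicate 1 had a Cd8a intensity of 2973 and a Cd8b1 intensity of 8426, although RAG1-deficient thymocytes should not reach the stage that carries CD8. On the other 5 arrays Cd8a was at most 81.3 and Cd8b1 at most 164. Cd4 gave 273, 101 and 52.3 in double mutant thymocytes, against 699, 184 and 172 in RAG1-deficient thymocytes. It was thus highest on the same array, and above the filter on every array but double mutant replicate 3. The title of RAG1-deficient replicate 1, like that of replicate 3 of its group, ends in WT.

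The family was chosen by the difference of Mt2 between the groups on these arrays. The differences of its members between the groups are therefore given as a description, with no p-value. In bulk RNA, a change in the share of cells that express a gene and a change in the RNA per cell cannot be told apart.

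Mt2 and its neighbour Mt1, the 2 metallothionein genes that most tissues express, were both brighter in the double mutant on every array. Mt2 had intensities of 2004, 2222 and 2214 in double mutant thymocytes, against 481.5, 272 and 294 in RAG1-deficient thymocytes. The lowest double mutant value was thus above all 3 RAG1-deficient values, and the double mutant arrays lay close together. The means were 2146.5 ± 124 (SD, n = 3) in the double mutant and 349 ± 115 (SD, n = 3) in RAG1-deficient thymocytes, a ratio of means of 6.15. On the scale used for testing, log2(intensity + 23), the difference was 2.58 ± 0.26 (SE), and it ranked 7 among 7642 tested probe sets ordered from the most raised.

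Mt1 had intensities of 512.5, 693 and 673 in double mutant thymocytes, against 183, 267.5 and 92.7 in RAG1-deficient thymocytes. The groups did not overlap, and the RAG1-deficient arrays spread more widely for Mt1 than for Mt2 relative to their means. The means were 626 ± 98.8 (SD, n = 3) in the double mutant and 181 ± 87.4 (SD, n = 3) in RAG1-deficient thymocytes, a ratio of 3.46. The log2 difference was 1.76 ± 0.35 (SE) and ranked 23 from the most raised. Absence of overlap was seen for 7.13% of all tested probe sets, 4.21% higher and 2.92% lower in the double mutant. By the limma call at an adjusted p of 0.05, Mt2 was called higher with group alone in the model (0.0393% of tested probe sets were), and Mt1 and Mt2 were called higher with title style as a block (0.563% were). The call of Mt2 with group alone ended without any 1 of the double mutant arrays and without RAG1-deficient replicate 3, and its call with the block ended without the Thy pair. The call of Mt1 with the block ended when either the numbered or the Thy pair was left out. These counts use the values that picked the family and show nothing further about it.

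**Figure D1:**
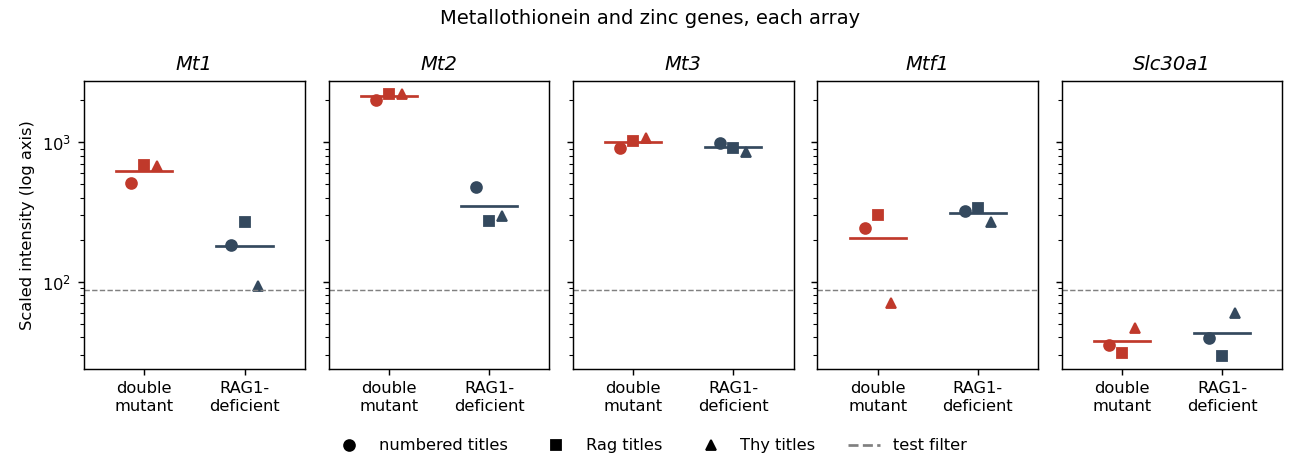
Scaled intensity (log axis) of the 5 genes on each of the 6 arrays, with double mutant on the left of each panel, RAG1-deficient on the right, 1 symbol for each title style and a bar at the group mean. Mt1 and Mt2 separate the groups, Mt3 overlaps near 1003 and 920, Mtf1 has 1 low double mutant array at 69.8, and Slc30a1 lies under the dashed test filter at 86.5 on every array.

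The 2 genes did not rank the title styles alike. Within the pairs of arrays that share a title style, the log2 difference of Mt2 was 2.01 for the numbered, 2.93 for the Rag and 2.82 for the Thy pair. For Mt1 the differences were 1.38 for the numbered, 1.30 for the Rag and 2.59 for the Thy pair. Both genes were higher in the double mutant in all 3 pairs. The wide Thy difference of Mt1 goes with its lowest RAG1-deficient value, 92.7 on replicate 3, and the narrow numbered difference of Mt2 goes with its highest RAG1-deficient value, 481.5 on replicate 1. That is the array with the CD8 signal. Without it the log2 difference was 2.82 for Mt2 and 1.81 for Mt1, both at least as large as with it.

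The third metallothionein gene on the list, Mt3, is known from brain, where it was described as a growth inhibitory factor. Its probe set gave 915, 1022 and 1073 in double mutant thymocytes, against 990.5, 913 and 857 in RAG1-deficient thymocytes. The groups overlapped, with means of 1003 ± 80.6 (SD, n = 3) in the double mutant and 920 ± 67.1 (SD, n = 3) in RAG1-deficient thymocytes. The log2 difference was 0.12 ± 0.20 (SE), below 0 in the numbered pair (-0.11) and above 0 in the Rag (0.16) and Thy (0.32) pairs. Mt3 thus showed no shift beyond the spread between arrays. Mt4, which is known from stratified epithelia, lay under the filter on every array, at 18.1 to 35.0 in the double mutant and 17.6 to 25.2 in RAG1-deficient thymocytes, and was not tested.

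The regulator gene Mtf1 was not higher where its targets were. It had intensities of 244.5, 301 and 69.8 in double mutant thymocytes, against 320, 340 and 267 in RAG1-deficient thymocytes. The groups overlapped, and each double mutant array lay below the RAG1-deficient array of its title style, by -0.36, -0.17 and -1.64 on the log2 scale. The log2 difference of -0.72 ± 0.45 (SE) rested mostly on double mutant replicate 3, and without that array it was -0.17. Mtf1 transcript does not report on the activity of the protein, which zinc controls directly.

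Slc30a1, the plasma membrane zinc exporter and another target of MTF1, was dim on every array. It stood at 34.9, 31.0 and 46.3 in double mutant thymocytes, against 39.6, 29.5 and 59.4 in RAG1-deficient thymocytes. All 6 values lay under the filter, so Slc30a1 was not tested, and its log2 difference was -0.11, with overlapping groups. A difference could not be judged at this level. Of the 5 genes, 4 passed the filter on low values: Mt1, Mt2 and Mt3 on all 6 arrays and Mtf1 on 5.

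**Figure D2:**
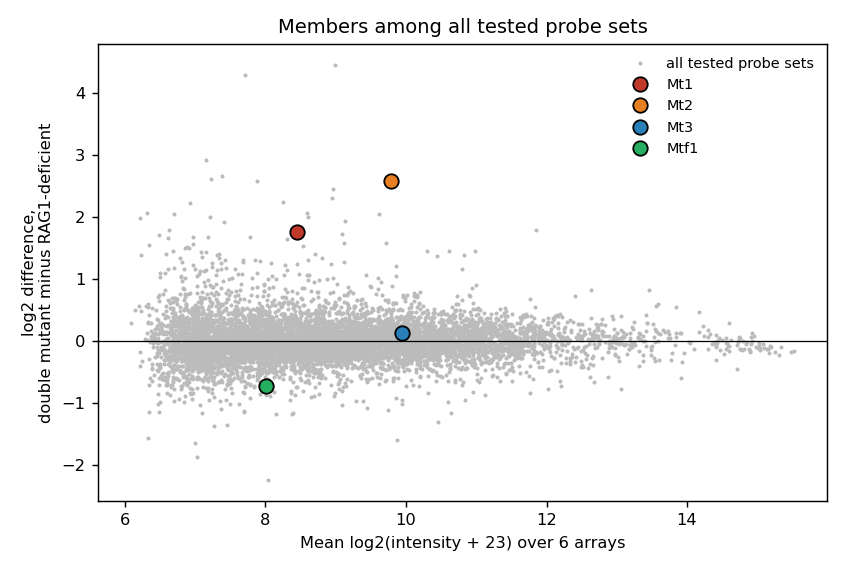
Log2 difference, double mutant minus RAG1-deficient, against mean log2(intensity + 23) for all 7642 tested probe sets (grey points), with the 4 tested members as coloured points. Mt2 at 2.58 and Mt1 at 1.76 lie above most grey points, ranking 7 and 23 from the most raised, Mt3 at 0.12 lies near 0 and Mtf1 at -0.72 lies below 0.

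A comparison that the choice of the family did not use is that between title styles, since each style holds 1 array of each group. Of all tested probe sets 30.2% differed between title styles (limma F test with group in the model, Benjamini-Hochberg adjusted over all tested probe sets). Of the 4 tested members 0 did, and 1 of them, Mtf1, had an unadjusted p under 0.05. The adjusted p from limma was 0.0975 for Mtf1, 0.247 for Mt1, 0.488 for Mt2 and 0.994 for Mt3. For Mtf1, the level averaged on the log2 scale was 280 on numbered, 320 on Rag and 141 on Thy arrays.

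Mt3, Mt2 and Mt1 lie close together on mouse chromosome 8, beside Mt4, so their surroundings were looked at in the array data. Among the 10 nearest annotated genes on each side of Mt3 to Mt1, 6 were on the array and 4 were tested. None of these 4 passed in either limma fit, and 0 had an unadjusted p under 0.05. Nudt21, a factor of mRNA 3′ end processing, gave 1086, 1521 and 1358 in double mutant thymocytes, against 845, 1314 and 1223 in RAG1-deficient thymocytes, a log2 difference of 0.24 ± 0.25 (SE). On the Mt1 side, the nuclear pore gene Nup93 gave 240, 316 and 431 in double mutant thymocytes, against 265, 188.5 and 294 in RAG1-deficient thymocytes, with a log2 difference of 0.36 ± 0.29 (SE). These groups overlapped for both genes.

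The log2 difference was 0.22 ± 0.31 (SE) for Herpud1, a gene of the endoplasmic reticulum stress response, and 0.16 ± 0.43 (SE) for the brighter of 2 tested probe sets of the G protein gene Gnao1. Slc12a3, a kidney salt transporter, was under the filter, at 4.4 to 11.2 in the double mutant and 21.3 to 34.2 in RAG1-deficient thymocytes. Differences above 1 on the log2 scale were thus seen in this stretch for Mt2 and Mt1 and for none of their 4 tested neighbours.

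**Figure D3:**
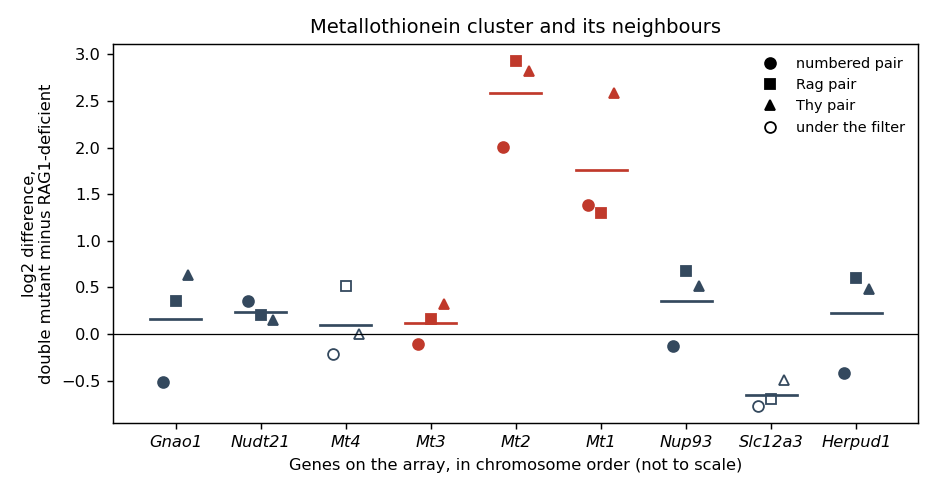
Log2 difference, double mutant minus RAG1-deficient, for the array genes around the metallothionein cluster in chromosome order, with a point for each title-style pair, a bar at the mean and open symbols for probe sets under the filter. Where a gene has several probe sets the brightest is shown. The 3 points of Mt2 lie between 2.01 and 2.93 and those of Mt1 between 1.30 and 2.59, while those of Mt3 and the tested neighbours lie between -0.51 and 0.68.

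Because Mt1 and Mt2 differed together and Mt3 did not, the bases before the annotated start of each gene were searched for the MRE core that MTF1 binds. The core was spelled as TGCACNC or TGCGCNC and searched on both strands in the 250 bases before the start that RefSeq gives on GRCm38.p6. At least 1 such core was found in 21.4% of 32851 promoters of this length and at least 3 in 1.26%. Mt2 held 3 and Mt3 held 0, and these 2 are shown whole to set a metallothionein promoter with cores beside one without. Mt1 and Slc30a1 held 1 each and Mtf1 held 0. Mt4, which lay under the test filter on every array, also held 1. The start sites used for Mt1 and Slc30a1 lie 206 and 84 bases inside the gene, counted from its outermost start in the RefSeq gene table. Most of the Mt1 window thus lies after that outermost start, so its count cannot be set against that of Mt2. For Mt1 and Slc30a1 only 30 bases around the core are shown. All are on the plus strand, 5′ to 3′, with MRE cores of either strand in capitals.
Mt2, chr8:94172368-94172617: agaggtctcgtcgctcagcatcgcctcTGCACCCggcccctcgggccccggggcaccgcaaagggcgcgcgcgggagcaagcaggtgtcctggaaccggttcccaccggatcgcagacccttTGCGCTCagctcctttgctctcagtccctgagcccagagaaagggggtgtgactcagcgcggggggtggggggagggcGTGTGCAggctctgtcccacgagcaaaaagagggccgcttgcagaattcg
Mt3, chr8:94152357-94152606: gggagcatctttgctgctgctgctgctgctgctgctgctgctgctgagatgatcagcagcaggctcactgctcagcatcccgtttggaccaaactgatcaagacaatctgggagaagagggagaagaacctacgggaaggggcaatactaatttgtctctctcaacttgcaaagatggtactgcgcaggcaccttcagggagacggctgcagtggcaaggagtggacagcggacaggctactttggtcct
Mt1, chr8:94179054-94179083: gcggtcccgctgTGCACACtggcgctccag
Slc30a1, chr1:191906726-191906755: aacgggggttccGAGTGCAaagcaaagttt

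In Mt2 the cores began 223, 128 and 50 bases before the start, the last one on the minus strand. The core of Mt1 began 23 bases before the start used, and that of Slc30a1 began 43 bases before the start used, on the minus strand. The antioxidant response element, spelled as TGACNNNGC and searched on both strands, was found in 10.2% of the promoters, among them those of Mt2 and Slc30a1. In the 250 bases the number of CpG dinucleotides was 21 for Mt2, 17 for Mt1, 5 for Mt3, 22 for Mtf1 and 25 for Slc30a1, against a median of 6 over all promoters. A match of letters does not show that a factor binds there, and a core outside these windows would not be seen.

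None of the tested zinc transporters passed. The SLC30 family (zinc exporters, which move zinc out of the cytosol) had 4 of 9 listed genes tested, and 0 passed over all probe sets in the unpaired or the paired limma fit, in which 0.0393% and 0.667% of all tested probe sets passed. At an unadjusted p under 0.05 the counts were 0 unpaired and 1 higher paired, Slc30a4. Over all 5751 tested named genes, an unadjusted p under 0.05 was reached by 2.64% higher and 1.06% lower in the unpaired fit and by 8.75% higher and 6.14% lower in the paired fit. A count of 1 among 4 genes is too small to be read against these shares. This vesicular exporter gave 374, 605 and 748 in double mutant thymocytes, against 285, 250 and 559 in RAG1-deficient thymocytes, with a log2 difference of 0.66 ± 0.36 (SE) and overlapping groups. Its adjusted p in the paired limma fit was 0.239. Slc30a9 had a log2 difference of 0.42 ± 0.36 (SE). The median log2 difference of the 5 tested probe sets of exporters was 0.35, against -0.0021 over all tested probe sets, and in the numbered pair it was -0.0086. It was 0.098 without double mutant replicate 3 and 0.53 without double mutant replicate 2. Leaving out RAG1-deficient replicate 2 gave 0.11.

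The SLC39 family (zinc importers, which bring zinc into the cytosol) had 7 of 14 listed genes tested. None passed in the unpaired or the paired limma fit, and 0 had an unadjusted p under 0.05 in either. Slc39a6, a plasma membrane importer, gave 580, 615 and 500 in double mutant thymocytes, against 507, 805 and 1256 in RAG1-deficient thymocytes. The log2 difference was -0.49 ± 0.32 (SE), it was above 0 in the numbered pair (0.19), and the groups overlapped. Slc39a8, an importer that also carries manganese and cadmium, had a log2 difference of 0.35 ± 0.36 (SE). The median over 8 importer probe sets was 0.05.

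Other genes linked to MTF1 or to the family likewise did not pass. Of 6 listed, 4 were tested, and 0 passed in the unpaired or the paired limma fit. At an unadjusted p under 0.05 the counts were 0 unpaired and 1 higher paired of 4, beside 8.75% higher over all genes. This was Csrp1, a LIM domain protein gene. Its probe sets had log2 differences of 0.31 ± 0.22 (SE) and 0.25 ± 0.19 (SE). For the second of these the groups did not overlap, at 2702, 3030 and 2792 in double mutant thymocytes, against 2271.5, 2599 and 2289 in RAG1-deficient thymocytes. The selenoprotein gene Selenoh had a log2 difference of 0.19 ± 0.24 (SE). The probe sets of the list had a median of 0.05.

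Copper and iron handling genes were listed because metallothioneins also bind copper. Of 6 tested copper genes and 6 tested iron genes, 0 passed in the unpaired or the paired limma fit, and 0 had an unadjusted p under 0.05 in either. The copper importer gene Slc31a1 gave 585, 623.5 and 619 in double mutant thymocytes, against 695, 895 and 725 in RAG1-deficient thymocytes, and the groups did not overlap. Its log2 difference was -0.32 ± 0.21 (SE), and that of a second probe set, with overlapping groups, was -0.17 ± 0.22 (SE). The copper pump gene Atp7a had log2 differences of 0.25 ± 0.32 (SE) and -0.0007 ± 0.43 (SE) over its 2 tested probe sets. Among the iron genes, the metal importer gene Slc11a2 had 0.28 ± 0.24 (SE) and -0.03 ± 0.25 (SE) over its 2 probe sets, and Hfe, a regulator of iron uptake, had -0.44 ± 0.41 (SE). The median log2 difference was 0.05 for the copper list and 0.15 for the iron list.

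**Figure D4:**
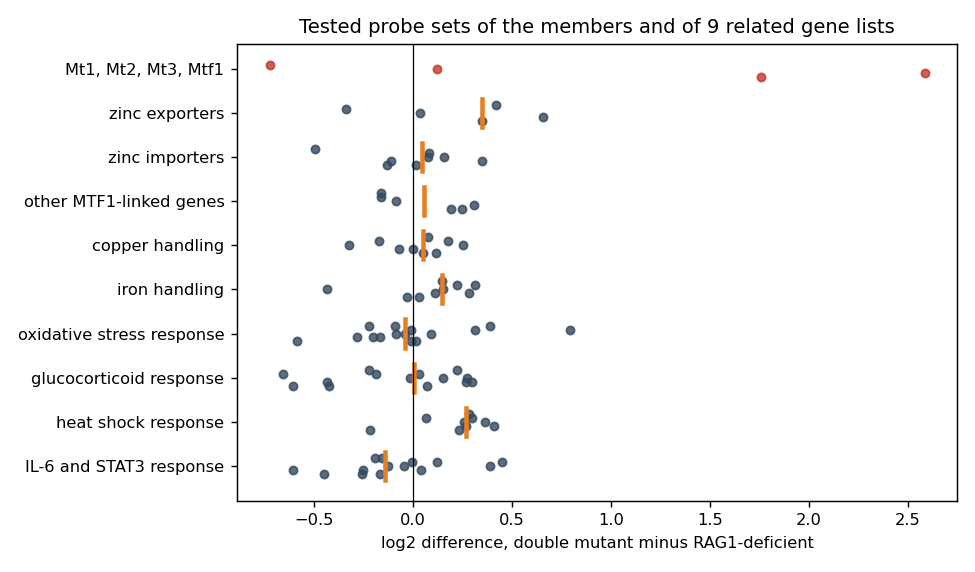
Log2 difference, double mutant minus RAG1-deficient, of each tested probe set of the members (top row) and of 9 related gene lists, with an orange bar at each list's median. All tested probe sets of the 9 lists lie between -0.66 and 0.79, below Mt1 at 1.76 and Mt2 at 2.58.

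The remaining lists hold genes of responses that are known to raise metallothionein transcripts in other settings. Of 13 tested genes of the oxidative stress response, 0 passed in the unpaired or the paired limma fit. At an unadjusted p under 0.05, 1 was higher and 0 lower unpaired, beside 2.64% higher and 1.06% lower over all genes. In the paired fit 2 were higher and 1 lower, beside 8.75% higher and 6.14% lower over all genes. Such small counts cannot be read against these shares. Gclm, the modifier subunit of the enzyme that starts glutathione synthesis, gave 404, 379 and 396 in double mutant thymocytes, against 167, 231 and 264 in RAG1-deficient thymocytes. The groups did not overlap. Its log2 difference of 0.79 ± 0.25 (SE) had an adjusted p of 0.991 in the unpaired and 0.155 in the paired limma fit. The other raised gene of the paired count was Txnrd1, a thioredoxin reductase gene, with a log2 difference of 0.39 ± 0.27 (SE) and 0.43, 0.33 and 0.41 in the numbered, Rag and Thy pairs. The lowered one was Gsr, glutathione reductase, with -0.58 ± 0.34 (SE). The groups overlapped for both. The median of the list was -0.04.

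Of 8 tested heat shock genes, 0 passed in the unpaired or the paired limma fit. At an unadjusted p under 0.05 the counts were 0 unpaired and 4 higher paired of 8, above the 8.75% over all genes, a difference that was not tested. The log2 difference was above 0 for 8 of 9 heat shock probe sets, with a median of 0.27 (0.17 for the numbered, 0.30 for the Rag and 0.36 for the Thy pair). Without double mutant replicate 3 the median was 0.064. The chaperone gene Hspa8 gave 7668.5, 7719 and 7676 in double mutant thymocytes, against 6760.5, 5856 and 6382 in RAG1-deficient thymocytes, and the groups did not overlap. Its log2 difference was 0.28 ± 0.19 (SE), and that of the mitochondrial chaperonin gene Hspe1 was 0.37 ± 0.29 (SE).

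Of 12 tested glucocorticoid response genes, 0 passed in the unpaired or the paired limma fit, and 0 had an unadjusted p under 0.05 in either. Fkbp5, Tsc22d3 and Klf9, known targets of this hormone's receptor, were named after their values were seen. Fkbp5 had a log2 difference of 0.03, with overlapping groups. Tsc22d3 lay under the filter, and its difference of 0.05 averaged pair values of 1.16 (numbered), 0.20 (Rag) and -1.22 (Thy). A probe set of Klf9 under the filter gave 62.1, 35.8 and 80.3 in double mutant thymocytes, against 15.8, 8.1 and 15.1 in RAG1-deficient thymocytes, a log2 difference of 1.16 without overlap. The tested probe set of Klf9 had 0.28 ± 0.23 (SE), with overlapping groups. The transcription factor gene Cebpd had -0.61 ± 0.36 (SE), without overlap, and the mRNA decay gene Zfp36 had -0.66 ± 0.40 (SE). The median of the list was 0.0067.

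Of 9 tested genes of the IL-6 and STAT3 response, 0 passed in the unpaired or the paired limma fit. At an unadjusted p under 0.05 the counts were 0 unpaired, and 1 higher and 1 lower paired of 9. Over all genes the paired shares were 8.75% higher and 6.14% lower, and such small counts cannot be read against them. A probe set of Stat3, the transcription factor itself, gave 1386, 1477 and 1442 in double mutant thymocytes, against 1162, 1135 and 985 in RAG1-deficient thymocytes. The groups did not overlap, and the log2 difference was 0.39 ± 0.20 (SE). Another tested probe set of Stat3 had 0.45 ± 0.29 (SE), with overlapping groups. A probe set of Socs3, the feedback inhibitor of STAT3, had -0.45 ± 0.22 (SE), without overlap, and another had -0.25, with 0.10 in the Thy pair. Of the tested probe sets of the list 4 lay above 0 and 10 below.

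The transcripts whose profile over the 6 arrays lay nearest to those of Mt2 and Mt1 belong to other gene families. Likeness was the root-mean-square distance between log2 profiles, each centred on its own mean, so a gene that differs between the groups by a like amount comes out near. The 5 nearest to Mt2 were Cenpv (distance 0.21), the cathepsin gene Ctsf (0.28), the stem cell surface gene Prom1 (0.29), the adhesion molecule gene Ncam1 (0.30) and Zmat3, a p53 target (0.31). Mt1 lay at 0.62 from Mt2 and ranked 25 by nearness to it among the tested probe sets. The 5 nearest to Mt1 were the nuclear receptor gene Pparg (0.24), H2-Q5 (0.30), Mtx2 (0.31), Vopp1 (0.32) and Sbf2 (0.33). The probe sets of Pparg and H2-Q5 can detect related transcripts.

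Ctsf gave 273, 232 and 221 in double mutant thymocytes, against 76.8, 16.7 and 22.4 in RAG1-deficient thymocytes. Zmat3 gave 1088, 1052 and 1094 in double mutant thymocytes, against 429, 132 and 134 in RAG1-deficient thymocytes. Like Mt2, Zmat3 was highest among the RAG1-deficient arrays on replicate 1. Pparg gave 128, 243 and 134 in double mutant thymocytes, against 26.3, 68.6 and 10.2 in RAG1-deficient thymocytes. Ctsf, Prom1 and Pparg lay under the test filter on every RAG1-deficient array. They passed it through the double mutant arrays only, and their distances rest partly on values near the pseudocount. The distances describe these 6 arrays and carry no test.

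Markers of other cells were set beside the Mt1 and Mt2 levels. The summed intensity of 6 NK cell markers was 7585 to 9846.5 in the double mutant and 2571 to 4026 in RAG1-deficient thymocytes, without overlap. Most of this sum came from Gzma, and the granzyme genes Gzma and Gzmb were called higher in the paired limma fit (adjusted p 0.00356 and 0.0261) but not in the unpaired one (0.267 and 0.542). Without Gzma and Gzmb the sum was 883 to 1700 in the double mutant and 1009.6 to 1663 in RAG1-deficient thymocytes. The 5 double-positive stage markers summed to 321 to 647 in the double mutant and 734 to 12461 in RAG1-deficient thymocytes, again without overlap. For each of the 5 markers alone the groups overlapped. The sum of 12461 was that of RAG1-deficient replicate 1, and most of it came from Cd8a (2973) and Cd8b1 (8426). The part of NK cells and double-positive cells in the Mt1 and Mt2 differences was not tested. Sums overlapped between the groups for 10 myeloid, 7 dendritic cell, 8 B lineage, 6 erythroid and 11 stromal markers. Some single markers on these lists did not overlap. Pdgfrb, a receptor of mesenchymal cells on the stromal list, gave 420, 536.5 and 405 in double mutant thymocytes, against 135, 210 and 202 in RAG1-deficient thymocytes. Its log2 difference of 1.22 ± 0.26 (SE), without overlap, had an adjusted p of 0.332 in the unpaired and 0.0436 in the paired limma fit, and Pdgfrb was the 1 called gene of 8 tested on that list. Of the 8 tested stromal probe sets, 2 had a log2 difference above 0 and 6 below, with a median of -0.077. Epor, the erythropoietin receptor gene, gave 145, 160 and 192 in double mutant thymocytes, against 60.2, 122 and 38.3 in RAG1-deficient thymocytes, without overlap (log2 difference 1.05 ± 0.41, SE, limma adjusted p with the block 0.251). All 7 tested dendritic cell probe sets had a log2 difference below 0, with a median of -0.42, and the groups did not overlap for Itgax (-0.36 ± 0.23, SE) and Ccl22 (-0.42 ± 0.28, SE). None of these 7 passed in either limma fit. At an unadjusted p under 0.05 the counts were 0 unpaired and 2 lower paired, beside 6.14% lower paired over all genes. These 2 were Cd74 (-0.64 ± 0.71, SE) and H2-Eb1 (-0.66 ± 0.87, SE), both with overlapping groups. The difference from that share was not tested. The part of these markers' cells in the Mt1 and Mt2 differences was not tested either.

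Of the double-negative thymocyte markers, 14 of 15 tested probe sets had a log2 difference below 0, with a median of -0.21, and 0 genes passed in either limma fit. At an unadjusted p under 0.05, 0 of 11 tested genes were higher and 2 lower unpaired, and 1 was higher and 4 lower paired. The 1 higher gene was Kit, with a log2 difference of 0.49 ± 0.35 (SE) and overlapping groups. Over all genes, 2.64% were higher and 1.06% lower unpaired, and 8.75% higher and 6.14% lower paired. The difference from these shares was not tested. The groups did not overlap for Ptcra, the pre-T cell receptor alpha gene (-0.66 ± 0.24, SE), and for the brighter probe set of Rag1 (-0.44 ± 0.19, SE), both lower in the double mutant.

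The erythroid sum was lowest on both Thy arrays, at 1361 in the double mutant and 758 in the RAG1-deficient group, and 17044 to 31018 on the other 4 arrays. On those 4 arrays most of the sum came from Hba-a1, at 16352 to 30031, against 794 and 375 on the Thy arrays. Alas2 was also lowest on the Thy arrays. By contrast, Klf1 was highest on the Thy array of the double mutant (202) and Slc4a1 on that of the RAG1-deficient group (173). In that Thy pair, Mt2 differed by 2.82 and Mt1 by 2.59 on the log2 scale. The part of erythroid cells in the Mt1 and Mt2 differences was not tested. No marker on any of these lists was listed at an intensity of 0.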

How the data were processed

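The deposited table holds 1 intensity per probe set and array, on a linear scale. The software behind these deposited intensities is not given in the sources used here, and their 2%-trimmed means were nearly equal on all 6 arrays. A change common to most transcripts would not be seen on this scale. Control probe sets (66 of 12488) were left out. Gene names came from the platform table, updated by Entrez number with RefSeq genes of GRCm38.p6. Of 12422 probe sets, 10833 named 1 gene, 396 several and 1193 none. The tests used log2(intensity + 23), with the rounded 20th percentile of all values as the pseudocount. This scale understates changes of dim probe sets. Probe sets above 86.5 (the 40th percentile) on at least 3 of 6 arrays were tested, 7642 in all. Groups, taken from the sample descriptions, went into limma 3.58.1 under R 4.3.3 (eBayes with trend, two-sided, Benjamini-Hochberg over all tested probe sets, adjusted p under 0.05). Differences are double mutant minus RAG1-deficient, and SEs are those of the unpaired fit.

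The paired fit added title style as a replicate block. No label states this pairing, which rests on the wording of titles and on the values: deviations from the group means correlated within a style at 0.57 (numbered), 0.74 (Rag) and 0.60 (Thy), all over the limit of 0.1. The number of arrays limits the precision. The members and gene lists were chosen with earlier results of these data known. In each pathway list the genes named are those that passed in either fit. Otherwise they are the 2 with the smallest unadjusted p in the unpaired fit. Txnrd1, Fkbp5, Tsc22d3 and Klf9 were added after their values were seen. In the marker lists, some markers that moved with Mt1 and Mt2 and some that moved the other way are named. These were picked after their values were seen. The planned naming of the 3 brightest was dropped, since levels of different probe sets are not comparable. Each member is named, as are neighbours on the array and the 5 nearest profiles to Mt2 and to Mt1. Alternatives were another pseudocount (5 or 100), no filter, quantile or median scaling, the block, and leaving out arrays or pairs. Promoter sequences are from RefSeq (GRCm38.p6), where all 5 genes matched. Plots used matplotlib 3.10.9 under Python 3.11.15.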

Additional observations from a re-analysis of the deposited data

How the results depend on the processing

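Each result was recomputed under 15 alternatives. The log2 difference of Mt2 lay between 2.35 and 2.87, that of Mt1 between 1.34 and 2.06 and that of Mtf1 between -1.07 and -0.17, each keeping its sign in all 15. That of Mt3 stayed above 0, between 0.02 and 0.24, with 0.24 in the paired fit without replicate 1 of both groups. That of Slc30a1, under the filter, was -0.11 and became 0.07 without RAG1-deficient replicate 3. The unpaired fit no longer called Mt2 without any 1 of the double mutant arrays or without RAG1-deficient replicate 3, and the paired fit no longer called it without the Thy pair. For the 9 related lists, 0 genes were called under any of the 15.

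Over all probe sets, the unpaired fit called 3 higher and 0 lower. The replicate block gave 43 higher and 8 lower, and quantile and median scaling gave 5 higher each. With 1 array left out the unpaired fit called 0 to 6 higher (0 without double mutant replicate 3 or RAG1-deficient replicate 3, 1 without double mutant replicate 2, 6 without RAG1-deficient replicate 1). The paired fit without 1 pair called 3 to 127 higher and 0 to 64 lower, with the highest counts without the Rag pair and 12 higher and 2 lower without the numbered pair. The cause was not tested. A single-array omission leaves a title style in 1 group only.

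List medians of log2 differences moved as follows. With 1 array left out, the median was 0.098 to 0.53 for zinc exporters, -0.071 to 0.087 for zinc importers, -0.017 to 0.12 for other MTF1-linked genes, -0.091 to 0.12 for copper, 0.049 to 0.15 for iron, -0.11 to 0.0045 for oxidative stress, -0.13 to 0.11 for glucocorticoid, 0.064 to 0.29 for heat shock and -0.25 to 0.14 for IL-6 and STAT3 genes. With a pair left out in the paired fit, it was -0.096 to -0.044 for oxidative stress, -0.16 to 0.13 for glucocorticoid and 0.16 to 0.32 for heat shock genes. The oxidative stress median was -0.024 without the filter and -0.051 with median scaling.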
